A study of Mus musculus with 9 samples.

Results

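The respiratory chain genes examined here are nuclear genes for the subunits of complexes I to V of the inner mitochondrial membrane, with some of their assembly factors and tissue-specific isoforms. They were chosen by name alone. A gene was taken where its name begins with Ndufa, Ndufb, Ndufc, Ndufs, Ndufv, Uqcr, Cox4i, Cox5, Cox6, Cox7, Cox8 or Atp5, or is Sdha, Sdhb, Sdhc or Sdhd. Of the 23746 rows of the table, 89 met this rule, each with a name of its own. They comprise 36 complex I subunits, 4 complex I assembly factors, 4 complex II subunits, 8 complex III subunits, 19 complex IV subunits, 15 ATP synthase subunits, the supercomplex factor Cox7a2l, and Atp5s and Atp5sl. The 13 chain subunits encoded by mitochondrial DNA have no row under the names searched.

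RNA was sequenced from the livers of 9 mice, with 1 library per mouse. By the labels all 9 mice are of the background strain C57Bl/6, and the study's methods name C57BL6J/Ola.Hsd. WT mice were fed (3 mice) or fasted for 24 h (2 mice). p21KO mice, which lack the cell cycle inhibitor p21 encoded by Cdkn1a, were fed (2 mice) or fasted for 24 h (2 mice). The study's methods describe adult males, and in the null mice p21 is missing from every cell, not from hepatocytes alone. The study asked how the fasted liver differs between p21KO and WT mice.

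Mitochondria pass electrons from NADH and succinate through complexes I and II to ubiquinone, then through complex III and cytochrome c to complex IV, which reduces oxygen. Complexes I, III and IV pump protons, and ATP synthase (complex V) uses the proton gradient to make ATP. Complex II is also an enzyme of the tricarboxylic acid cycle. Hepatocytes are rich in mitochondria, and in fasting they oxidise fatty acids and make glucose and ketone bodies.

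Values were FPKM, fragments scaled to transcript length and to the number mapped, so levels of genes can be set beside each other per length. FPKM summed to 349965 to 440780 per library, 9584 to 10097 rows reached 1 FPKM, and 841 to 950 rows reached 50 FPKM. The number of reads behind these values is unknown, and nothing in the labels says more of the replicates than that they are separate mice. The rows of the columns do not share 1 order: the names fit best for p21KO fasted replicate 2, while in the other columns a value often stands a few rows away from its name. Levels of genes are therefore given from p21KO fasted replicate 2, a single library. Groups were compared on rows with at least 50 FPKM in the libraries compared, except where rows down to 20 FPKM or with no minimum are named. Of 12 hepatocyte marker genes, 11 were at 50 FPKM or more in that library and Alb (albumin) was listed at 0. Of 20 rows for markers of other liver cells, 0 reached 50 FPKM, and the highest was the Kupffer cell gene Clec4f at 18.3 FPKM. The row named Cdkn1a held 2.27 FPKM there and 0 to 0.437 FPKM in the other 8 libraries, all far below the level at which rows can be compared, so it checks no label.

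In p21KO fasted replicate 2 the respiratory chain genes were among the abundant transcripts of liver. Of the 89 genes, 82 (92.1%) were at 1 FPKM or more, against 40.7% of all rows, and 53 (59.6%) were at 50 FPKM or more, against 3.60% of all rows. Their median was 64.8 FPKM and their quartiles were 32.4 and 115 FPKM. Together they held 1.99% of the summed FPKM of this library, a sum in which Alb was listed at 0. Chain subunits encoded by mitochondrial DNA had no row in it under the names searched. On the rows as deposited, the share was 1.00% to 1.81% in the other 8 libraries. The 1.81% was that of p21KO fasted replicate 1, where the row named Cox7a2 held 1800 of the 6342 FPKM on the 89 rows.

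**Figure D1:**
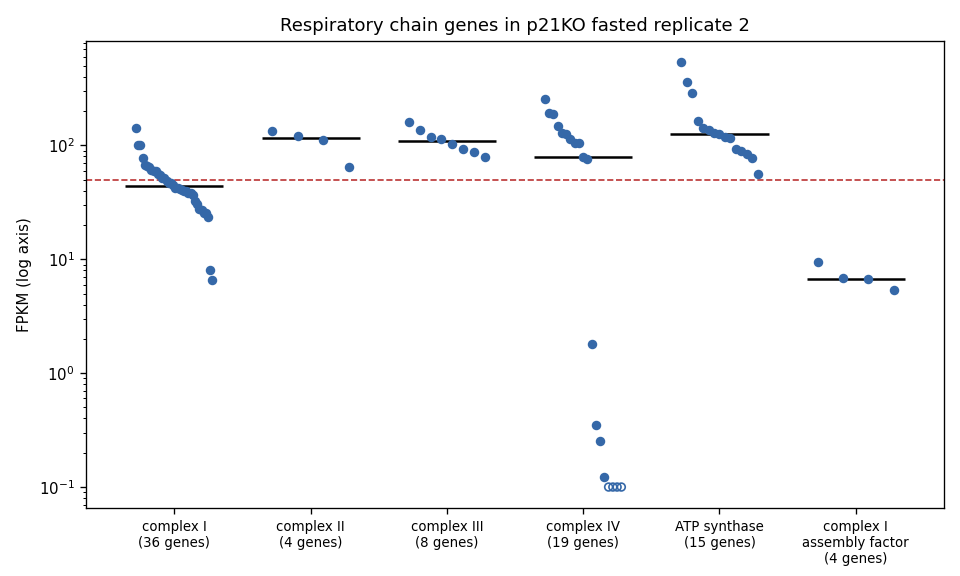
FPKM of the genes of each complex in p21KO fasted replicate 2, on a log axis, 1 point per gene. Black bars mark medians, the dashed line marks 50 FPKM, and open circles at the bottom are the 4 complex IV genes listed at 0. All genes of complexes II and III and of ATP synthase lie above the line, and 14 of 36 complex I genes do.

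ATP synthase genes had the highest median, 125 FPKM over 15 genes, and all 15 were at 50 FPKM or more. Atp5b and Atp5a1, which encode the β and α subunits of the catalytic head, were the highest of all 89 genes at 542 and 361 FPKM. Atp5g3, one of 3 genes for the membrane c subunit, followed at 288 FPKM. Its paralogues Atp5g2 and Atp5g1, whose mature proteins are the same as that of Atp5g3, stood at 83.3 and 78.1 FPKM. The lowest ATP synthase gene was Atp5k, for the small e subunit, at 55.8 FPKM. Reads from near-identical parts of such paralogues can be split between them by the authors' estimation.

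All 4 complex II genes and all 8 complex III genes were above 50 FPKM. For complex II the median was 116 FPKM. Sdhd, a membrane anchor subunit, stood at 135 FPKM, the flavoprotein gene Sdha at 121, the iron-sulfur gene Sdhb at 112 and the other anchor, Sdhc, at 65.0. For complex III the median was 108 FPKM, from 79.5 for the small subunit gene Uqcr11 to 162 for the hinge protein gene Uqcrh. The core subunit genes Uqcrc2 and Uqcrc1 stood at 119 and 102 FPKM, and Uqcrfs1, for the Rieske iron-sulfur protein, at 114 FPKM. In each of these complexes the highest gene stood close to 2 times the lowest.

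Complex IV genes fell into 2 sets. Of 19 genes, 11 were between 76.3 and 255 FPKM, led by Cox4i1 (255 FPKM), Ndufa4 (194 FPKM) and Cox6a1 (189 FPKM). The other 8 were all below 2 FPKM, and Cox4i2, Cox6a2, Cox7b2 and Cox8c were listed at 0. The low set holds the isoforms of striated muscle: Cox6a2 at 0, Cox7a1 at 0.252 and Cox8b at 0.122 FPKM, while their broadly expressed partners Cox6a1, Cox7a2 and Cox8a stood at 189, 78.6 and 147 FPKM. In other libraries the row named Cox7a1 held 52.2, 54.7 and 54.2 FPKM (WT fed replicates 1 and 3 and p21KO fasted replicate 1) and 46.5 FPKM (p21KO fed replicate 2), and the row named Cox8b held 146 FPKM in p21KO fed replicate 2. Cox6b2 and Cox8c, known from testis, stood at 1.79 and 0 FPKM. Ndufa4l2, a paralogue of Ndufa4 that is known to be induced in hypoxia, stood at 0.354 FPKM.

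Complex I genes were lower than those of the other complexes, with a median of 43.8 FPKM over 36 genes. Their values ran from 6.60 FPKM for Ndufs5 to 141 FPKM for Ndufb9, and 14 of 36 reached 50 FPKM. Genes of the NADH-oxidising N module had a median of 40.5 FPKM over 8 genes, from 27.3 for Ndufs4 to 65.9 for Ndufv1, which binds the flavin. Genes of the ubiquinone-reducing Q module had a median of 60.4 FPKM over 5 genes, with 27.5 for Ndufs8 as the lowest. The other 23 genes, mostly of the membrane arm, had a median of 45.0 FPKM. Ndufs5 and Ndufa11 were the lowest complex I genes at 6.60 and 8.06 FPKM, and the next was Ndufab1, the mitochondrial acyl carrier protein, at 23.3 FPKM. In the other 8 libraries the row named Ndufa11 was at 0 and the row named Ndufs5 held 0.0275 to 11.8 FPKM. At the edge of the level used for comparisons, Ndufa7 stood just above it at 51.6 FPKM and Ndufa8 just below it at 49.2 FPKM.

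Genes that build or regulate the chain were much lower than the genes of its subunits. The complex I assembly factors Ndufaf1 to Ndufaf4 ran from 5.35 to 9.52 FPKM, and 22 assembly factors of other names had a median of 6.22 FPKM with a highest value of 25.5 FPKM. Among 12 regulators of respiratory gene transcription the median was 5.83 FPKM and the highest value 14.3 FPKM. The coactivator Ppargc1a, which is induced in liver by fasting, stood at 2.29 FPKM. Genes of neighbouring steps were at levels like those of the subunits: 14 tricarboxylic acid cycle genes had a median of 64.4 FPKM, and 14 rows for electron carriers and other chain genes outside the name rule had a median of 87.1 FPKM. These levels come from 1 fasted p21KO library, so no spread between mice can be given for them.

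Promoters of the genes were read from RefSeq (GRCm38.p6), from 250 bases before to 50 bases after the start of each gene. All 89 names matched a RefSeq symbol, and 74 had a promoter window. NRF1, ETS factors such as GABP, and YY1 are transcription factors known to act at respiratory chain genes. On both strands, the NRF1 motif GCATGCGC was found for 11 of 74 genes (14.9%), against 3.54% of 621 other genes at 50 FPKM or more and 3.02% of all 26951 other genes. The ETS motif CCGGAAG was found in 17 of 74 (23.0%), against 12.9% and 9.89%. The YY1 motif AAGATGGC was found in 11 of 74 (14.9%), against 4.03% and 3.16%. None of these motifs contains another. The 11 genes with the NRF1 motif were Atp5g2, Atp5k, Atp5l, Cox6a1, Ndufa6, Ndufa8, Ndufa11, Ndufaf4, Sdhb, Uqcr11 and Uqcrc1, so they came from all 5 complexes. Their levels in p21KO fasted replicate 2 ran from 6.66 FPKM for Ndufaf4 to 189 FPKM for Cox6a1.

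The 250 bases before the start are shown for Sdhd, Atp5e and Uqcr11, which had the lowest adjusted p upon fasting among the 6 genes at 50 FPKM or more in all 9 libraries, and for Cox6a1, which holds both NRF1 and ETS motifs. All 4 lie on the minus strand, the sequences read 5′ to 3′ towards the gene, and capitals mark motif matches (CCGGAAG or its reverse complement CTTCCGG for ETS, and for Cox6a1 an overlapping pair of NRF1 matches on opposite strands). In GRCm38 they are at chr9:50603850-50604099 for Sdhd, chr2:174464102-174464351 for Atp5e, chr10:80406822-80407071 for Uqcr11 and chr5:115348959-115349208 for Cox6a1.
Sdhd: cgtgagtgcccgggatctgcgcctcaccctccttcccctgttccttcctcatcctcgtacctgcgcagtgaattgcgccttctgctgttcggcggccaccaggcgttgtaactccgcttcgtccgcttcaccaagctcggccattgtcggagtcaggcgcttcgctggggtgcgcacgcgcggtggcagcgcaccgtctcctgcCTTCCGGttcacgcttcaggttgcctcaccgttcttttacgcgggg
Atp5e: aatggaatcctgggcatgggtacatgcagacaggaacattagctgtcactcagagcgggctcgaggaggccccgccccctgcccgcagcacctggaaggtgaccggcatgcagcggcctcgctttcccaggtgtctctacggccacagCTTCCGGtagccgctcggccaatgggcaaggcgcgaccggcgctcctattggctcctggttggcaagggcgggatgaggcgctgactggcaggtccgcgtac
Uqcr11: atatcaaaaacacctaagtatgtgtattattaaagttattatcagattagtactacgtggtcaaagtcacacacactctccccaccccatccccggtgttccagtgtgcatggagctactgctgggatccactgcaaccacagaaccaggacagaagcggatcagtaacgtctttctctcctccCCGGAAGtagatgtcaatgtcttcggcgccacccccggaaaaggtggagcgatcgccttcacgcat
Cox6a1: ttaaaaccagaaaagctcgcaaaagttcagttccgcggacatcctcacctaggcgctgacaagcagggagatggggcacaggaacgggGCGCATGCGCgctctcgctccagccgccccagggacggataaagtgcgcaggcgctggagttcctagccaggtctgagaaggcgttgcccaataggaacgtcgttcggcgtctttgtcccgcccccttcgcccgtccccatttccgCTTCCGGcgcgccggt
Sdhd, Atp5e and Uqcr11 each held 1 ETS match. Uqcr11 also held an NRF1 match that runs across the start of the gene and is not in capitals. A match of letters shows no binding, and binding was not measured here.

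How far the other 8 libraries could be read beside these names was examined gene by gene. Of the 53 genes at 50 FPKM or more in p21KO fasted replicate 2, 24 to 35 (45.3% to 66.0%) were also at 50 FPKM or more in each other library, against 42.4% to 58.3% of all 854 such rows. A value within 1.5-fold of p21KO fasted replicate 2 stood on the gene's own row for 23 to 33 of the 53 genes (43.4% to 62.3%). It did so for 32.1% to 54.6% of all 854 rows. For 18 to 28 more of the 53 genes it stood only on another row within 10 rows, and for 0 to 3 on neither. Rows within 10 often hold other abundant genes, so a like value nearby is not shown to be the gene's own. The 53 genes spread over the whole range of agreement: 3 reached 50 FPKM in none of the other 8 libraries, 10 in 7 of them and 6 in all 8.

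Cox6a1, which encodes a broadly expressed complex IV subunit, is an example of a name that fitted 1 column only. Its row held 189 FPKM in p21KO fasted replicate 2 and 0 to 4.15 FPKM in the other 8 libraries. In p21KO fasted replicate 1 the row named Msi1, 2 rows above it, held 221 FPKM, and in p21KO fed replicates 1 and 2 the row named Triap1, 3 rows above it, held 214 and 187 FPKM. Uqcrc1, a core subunit gene of complex III, fitted 5 columns. Its row held 94.7 FPKM in WT fasted replicate 1, 98.1 and 87.7 FPKM in p21KO fed replicates 1 and 2, and 90.3 and 102 FPKM in p21KO fasted replicates 1 and 2. In the 3 WT fed libraries and in WT fasted replicate 2 it held at most 0.686 FPKM, and the next row up, named Slc26a6, held 85.6, 94.6, 85.9 and 95.7 FPKM. Read as deposited, both rows would give large differences between mice.

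Uqcrh gives an example from a test. With the rows as deposited and no minimum in all 9 libraries, 83 respiratory chain genes were tested. Rows entered there at 1 FPKM or more in more than 1 library. In p21KO livers upon fasting Uqcrh was the 1 called, and 0.686% of all 14293 rows were called. The log2 fold change of Uqcrh was 7.31 (adjusted p = 0.0482, limma). Its row held 0.193 and 0.103 FPKM in the fed p21KO libraries, 203 and 162 FPKM in the fasted ones, and 0 to 5.05 FPKM in the 5 WT libraries. In p21KO fed replicate 1 a row within 10 rows of it, named Dmbx1, held 171 FPKM. In p21KO fed replicate 2 such a row, named Faah, held 160 FPKM. Whether these are values of Uqcrh was not tested. The Uqcrh row fell below 50 FPKM in 7 of 9 libraries and was left out of the comparisons between groups.

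**Figure D2:**
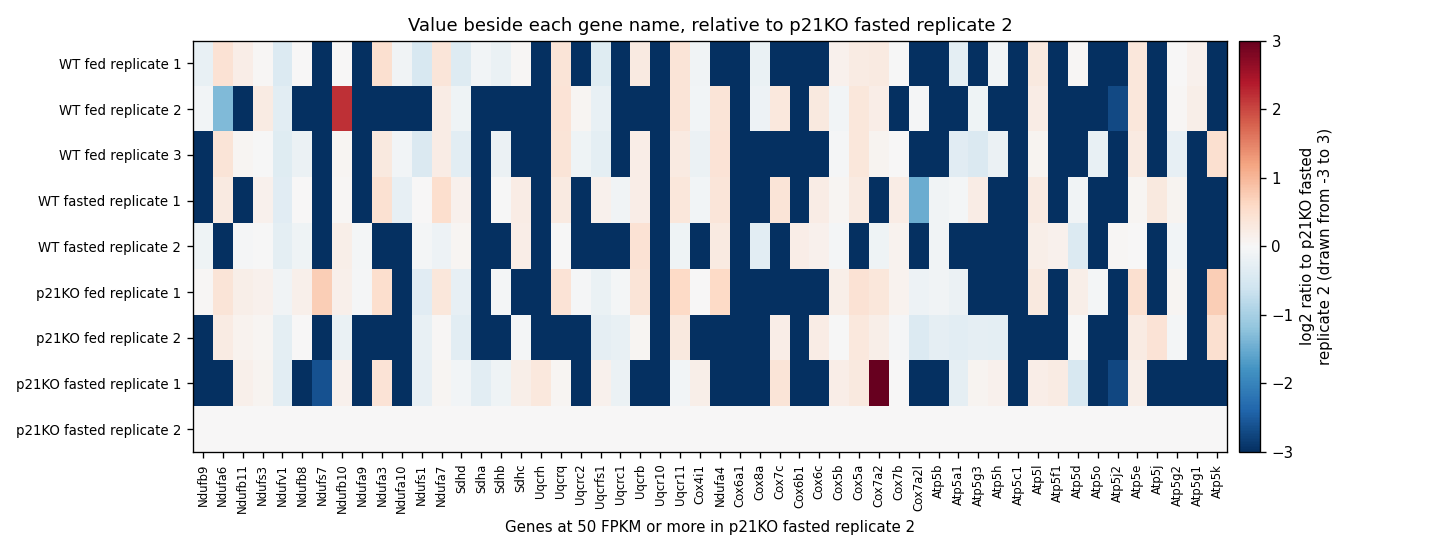
For 52 of the 53 genes at 50 FPKM or more in p21KO fasted replicate 2 (columns), the log2 ratio of the FPKM on the same row in each library (rows) to that library, drawn from -3 to 3. Pale cells are values close to the reference, and dark blue cells are values at least 8-fold lower, which change from library to library within most genes. The dark red cell is Cox7a2 in p21KO fasted replicate 1 (1800 FPKM).

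Among the 89 genes, a row at 50 FPKM or more was nearly always close in value to p21KO fasted replicate 2. Of 269 such values in the other 8 libraries, 257 were within 1.5-fold of the reference and 12 were not. This was less so over all 854 rows at 50 FPKM or more in the reference. In each other library fewer of them were within 1.5-fold of it than at 50 FPKM or more. Of the 89 genes, the following made up the 12 values. Among the 12 were 3 values of Cox7a1 and 1 of Cox8b, given above, and single values of Uqcr11, Ndufs7, Ndufv3, Atp5k and Ndufa4 in p21KO fed replicate 1 and of Ndufb7 in p21KO fed replicate 2. They included Cox7a2 in p21KO fasted replicate 1, at 1800 FPKM against 78.6 FPKM in the reference and 72.3 to 100 FPKM in 6 of the other libraries. The row of the translation factor Eef1a1 held 1697 FPKM in the reference and 0.0159 FPKM in p21KO fasted replicate 1. They also included Ndufb10 in WT fed replicate 2, at 277 FPKM against 52.0 to 68.3 FPKM in every other library. The next row, of the ribosomal protein gene Rps2, held 2.81 FPKM in that library and 297 and 251 FPKM in the other 2 WT fed libraries.

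In all 9 libraries 80 rows were at 50 FPKM or more, and 6 of them were respiratory chain genes: Ndufb10 and Ndufs3 (complex I), Sdhd (complex II), Uqcr11 (complex III), Cox5b (complex IV) and Atp5e (ATP synthase). The ratio of highest to lowest library had a median of 1.42 over the 6 genes and 1.71 over the 80 rows. It was within 2-fold for 5 of the 6 genes and for 51 of the 80 rows, and the exception among the 6 was Ndufb10. Because these rows were selected for being high in every library, a gene lost to silence in any group could not be among them.

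Sdhd encodes a membrane anchor of complex II, on chromosome 9 of GRCm38 from 50596340 to 50603849. It stood at 103, 124 and 109 FPKM in fed WT livers and at 148 and 140 FPKM in fasted WT livers. In p21KO livers it stood at 114 and 108 FPKM when fed and at 127 and 135 FPKM when fasted. All 4 fasted libraries were above all 5 fed libraries.

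Atp5e encodes the ε subunit of ATP synthase, on chromosome 2 from 174461075 to 174464101. Its values were 119, 119 and 112 FPKM in fed WT livers and 97.7 and 94.3 FPKM in fasted WT livers. In p21KO livers they were 130 and 111 FPKM when fed and 106 and 93.2 FPKM when fasted. All 4 fasted libraries were below all 5 fed libraries. Of the 80 rows, 13.8% had all fasted libraries above all fed ones and 18.8% had them all below, so neither pattern was rare.

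Uqcr11 encodes a small subunit of complex III, on chromosome 10 from 80402997 to 80406821. It stood at 103, 104 and 95.7 FPKM in fed WT livers and at 101 and 72.3 FPKM in fasted WT livers, which overlapped. In p21KO livers it stood at 121 and 97.4 FPKM when fed and at 74.8 and 79.5 FPKM when fasted, with no overlap. The low value of WT fasted replicate 2 lay with those of the fasted p21KO libraries.

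Cox5b and Ndufs3 varied least. Cox5b encodes a structural subunit of complex IV, on chromosome 1 from 36691487 to 36693388, and held 99.6 to 115 FPKM in fed WT, 101 and 110 in fasted WT, 106 and 120 in fed p21KO and 106 and 121 FPKM in fasted p21KO livers. Ndufs3 encodes a core subunit of the Q module of complex I, on chromosome 2 from 90894627 to 90904721, and held 66.2 to 79.6 FPKM in fed WT, 67.2 and 73.9 in fasted WT, 70.5 and 73.7 in fed p21KO and 67.3 and 71.8 FPKM in fasted p21KO livers. The groups overlapped in both genes under every comparison. Ndufb10, a membrane arm subunit gene of complex I on chromosome 17 from 24722060 to 24724423, held 52.0 to 68.3 FPKM in 8 libraries and 277 FPKM in WT fed replicate 2.

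**Figure D3:**
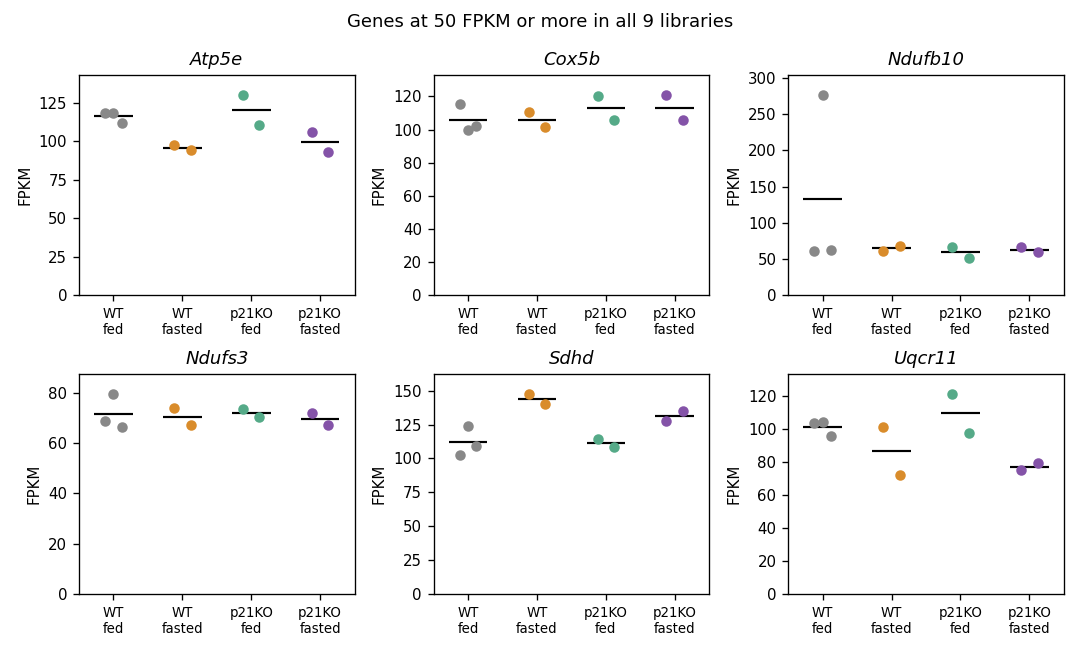
FPKM of the 6 genes at 50 FPKM or more in all 9 libraries, 1 point per mouse, with bars at the group means (3 WT fed, 2 WT fasted, 2 p21KO fed and 2 p21KO fasted mice). For Sdhd all fasted mice are above all fed mice, for Atp5e all fasted mice are below them, and 1 WT fed point of Ndufb10 stands at 277 FPKM.

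In WT livers none of the 6 genes passed the threshold upon 24 h of fasting, and Sdhd and Atp5e were near it. Differences were tested with limma on log2(FPKM + 1) over the 80 rows, and called at a Benjamini-Hochberg adjusted p under 0.05. Of the 80 rows 13.8% were called, 5 higher and 6 lower after fasting, and 26 had an unadjusted p under 0.05. Of the 6 genes 0 were called, while 2 had an unadjusted p under 0.05. These were Sdhd, 0.36 ± 0.105 (log2 fold change ± SE, 3 fed and 2 fasted mice, adjusted p = 0.0643, limma), and Atp5e, -0.27 ± 0.103 (adjusted p = 0.121, limma). Uqcr11 stood at -0.24 ± 0.159 (adjusted p = 0.289, limma), and at -0.48 without WT fasted replicate 1 and -0.0025 without WT fasted replicate 2. For Cox5b the log2 fold change was 0.00 with a 95% confidence interval of -0.27 to 0.27, and for Ndufs3 it was -0.02 with an interval of -0.24 to 0.21. Ndufb10 stood at -0.64 ± 0.629, and at 0.07 without WT fed replicate 2. Sdhd passed with median ratio scaling (0.43, adjusted p = 0.0190, limma), where 23.8% of the 80 rows were called. It also passed with rows of at least 100 FPKM (adjusted p = 0.0297, limma). There it was the 1 respiratory chain gene tested, and 26.3% of 38 rows were called. Atp5e passed with quantile normalization (-0.29, adjusted p = 0.0491, limma), where 16.2% of the 80 rows were called. In a fit of the 2 WT groups alone Atp5e passed too (adjusted p = 0.0379, limma), as did 26.2% of the 80 rows. The median of the 6 genes was -0.13, against -0.05 for the 80 rows. It was -0.19 without WT fasted replicate 1 and 0.024 without WT fasted replicate 2. Without WT fed replicate 2, which holds the high Ndufb10 value, it was 0.011. Groups did not overlap for 2 of the 6 genes and for 65.0% of the 80 rows. Leaving out 1 library at a time gave calls for 4 rows without WT fed replicate 3 or WT fasted replicate 2 and for 16 rows without either fasted p21KO library, and for 0 of the 6 genes each time.

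In p21KO livers the 6 genes also stayed below the threshold. Of the 80 rows 16.2% were called, 8 higher and 5 lower after fasting, and 26 had an unadjusted p under 0.05. Of the 6 genes 0 were called, with 2 at an unadjusted p under 0.05. Uqcr11 stood at -0.49 ± 0.174 (2 fed and 2 fasted mice, adjusted p = 0.109, limma), Atp5e at -0.27 ± 0.113 (adjusted p = 0.148) and Sdhd at 0.24 ± 0.115 (adjusted p = 0.201). Atp5e stood at -0.16 without p21KO fed replicate 1 and at -0.39 without p21KO fed replicate 2. Cox5b, Ndufs3 and Ndufb10 lay between -0.05 and 0.09. The median of the 6 genes was -0.02, from -0.094 without p21KO fasted replicate 1 to 0.049 without p21KO fasted replicate 2, and that of the 80 rows -0.07. Groups did not overlap for 3 of the 6 genes and for 55.0% of the 80 rows. The count of called rows fell to 4 without WT fed replicate 1 and rose to 22 without p21KO fasted replicate 2, and that of the 6 genes remained 0.

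The fasting effects of the 2 genotypes were then compared in 1 fit. The difference, p21KO minus WT, ran from -0.25 for Uqcr11 to 0.74 for Ndufb10, and was 0.02 for Ndufb10 without WT fed replicate 2. For Uqcr11 it was -0.013 without WT fasted replicate 1 and -0.49 without WT fasted replicate 2. It was -0.12 for Sdhd (interval -0.50 to 0.25) and 0.00 for Atp5e (interval -0.36 to 0.37). Of the 80 rows 0% were called, with 3 at an unadjusted p under 0.05, and among the 6 genes there were none of either kind. The lowest adjusted p of the 6 genes was 0.826 (limma).

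Fasted p21KO livers did not differ from fasted WT livers in any of the 6 genes past the threshold. The log2 fold changes ran from -0.15 for Uqcr11 (interval -0.56 to 0.27) to 0.10 for Cox5b (interval -0.20 to 0.39), and the lowest adjusted p was 0.753, for Sdhd at -0.13 (limma). The Uqcr11 value turned to 0.09 without WT fasted replicate 1. Of the 80 rows 0% were called and 5 had an unadjusted p under 0.05, and among the 6 genes 0 did. Sdhd was the 1 gene of the 6 whose groups did not overlap, as for 30.0% of the 80 rows. With 2 mice per group the intervals of all genes but Ndufb10 lay within -0.56 to 0.39.

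Fed p21KO and fed WT livers gave the same picture. The log2 fold changes ran from -0.78 for Ndufb10, which was -0.06 without WT fed replicate 2, to 0.10 for Uqcr11 (interval -0.27 to 0.48). The lowest adjusted p of the 6 genes was 0.657 (limma), again for Ndufb10. Of the 80 rows 0% were called, with 5 at an unadjusted p under 0.05 and 0 of the 6 genes among them.

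**Figure D4:**
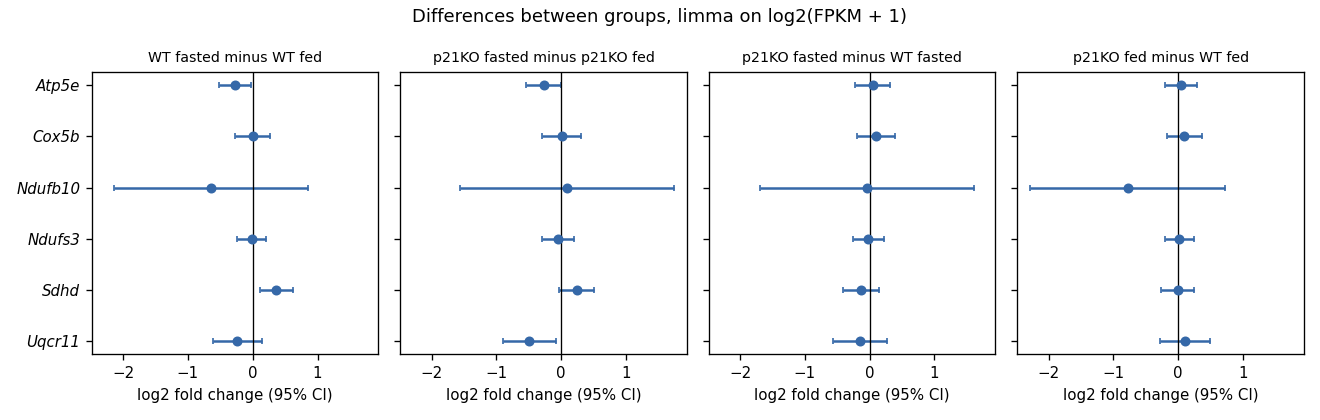
Log2 fold changes of the 6 genes in the 4 comparisons between groups, from limma on log2(FPKM + 1), with 95% confidence intervals as bars. The intervals of Sdhd and Atp5e in WT livers and of Atp5e and Uqcr11 in p21KO livers do not cross 0 before adjustment. In each fasting comparison 26 of the 80 rows had an unadjusted p under 0.05. The intervals of Ndufb10 are widened by WT fed replicate 2.

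More of the chain could be seen where only the libraries of the 2 groups compared had to reach 50 FPKM, in a fit of those groups alone. For fasting in WT livers this gave 9 respiratory chain genes among 145 rows, of which 19.3% were called, and 0 of the 9 genes were called. Here Uqcrq, a small complex III subunit gene, stood at 181, 182 and 179 FPKM when fed and at 167 and 136 FPKM when fasted (-0.26 ± 0.114, adjusted p = 0.171, limma). Atp5l and Atp5g2 of ATP synthase stood at 0.03 and 0.07. The 2 genes with an unadjusted p under 0.05 were again Atp5e and Sdhd, and 55 of the 145 rows had such a p.

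For fasting in p21KO livers this gave 17 genes among 191 rows, of which 3.66% were called and 43 had an unadjusted p under 0.05. Of the 17 genes 0 were called, while 1, Uqcr11, had an unadjusted p under 0.05. Leaving Cox7a2 aside, they ran from -0.49 for Uqcr11 to 0.30 for Uqcrfs1. Uqcrfs1, for the Rieske protein, stood at 99.2 and 94.2 FPKM when fed and at 125 and 114 FPKM when fasted (0.30 ± 0.202, adjusted p = 0.451, limma). Cox7a2 stood at 1.99 ± 1.198, with 100 and 88.7 FPKM when fed and 1800 and 78.6 FPKM when fasted. Atp5a1, the α subunit gene of ATP synthase, stood at 317 and 288 FPKM when fed and at 300.2 and 361 FPKM when fasted, which overlapped.

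Between genotypes the wider sets gave the same result. In fasted livers there were 13 genes among 210 rows, the lowest being Cox7b at -0.15, and in fed livers 11 genes among 183 rows ran from -0.78 for Ndufb10 to 0.10 for Uqcr11. In both, 0% of the rows were called. Sdhc, the second membrane anchor of complex II, stood at 75.7 and 74.0 FPKM in fasted WT and at 73.0 and 65.0 FPKM in fasted p21KO livers (-0.12 ± 0.119). In fed livers Cox5a, a complex IV subunit gene, stood at 125, 133 and 133 FPKM in WT and at 141 and 132 FPKM in p21KO mice, with a log2 fold change of 0.07 and an interval of -0.18 to 0.31.

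A further gene passed the threshold once rows down to 20 FPKM were let in. This gave 215 rows and 12 respiratory chain genes, the 6 others being Ndufa2, Ndufa7, Ndufa12, Ndufs8, Ndufv1 and Ndufv2, all of complex I. Ndufs8 encodes an iron-sulfur subunit of the Q module, on chromosome 19 from 3908863 to 3912774. It stood at 42.3, 41.7 and 41.6 FPKM in fed WT livers and fell to 28.4 and 28.1 FPKM in fasted WT livers (-0.55 ± 0.072, adjusted p = 0.00753, limma). In p21KO livers it fell from 38.8 and 35.3 FPKM to 30.6 and 27.5 FPKM (-0.34 ± 0.079, adjusted p = 0.0321, limma). All 4 fasted libraries were below all 5 fed libraries, as for 18.6% of the 215 rows. Of the 215 rows 10.2% were called in WT livers (6.51% lower) and 20.5% in p21KO livers (12.6% lower), and Ndufs8 was the 1 gene of the 12 called in each. Agreement of rows between libraries was examined only for genes at 50 FPKM or more in p21KO fasted replicate 2. Whether lower rows more often hold the value of another gene was not tested. These 2 calls rest on rows that were not kept for the other results, and the Ndufs8 row held 27.5 to 42.3 FPKM over all 9 libraries.

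The neighbouring pathways could hardly be compared. Of the 14 rows for electron carriers and other chain genes outside the name rule, 1 was at 50 FPKM or more in all 9 libraries, 2010107E04Rik, and it was not called in any comparison (-0.13 ± 0.141 in WT livers upon fasting, adjusted p = 0.535, limma). Of 14 tricarboxylic acid cycle genes 0 were. In the fit of the WT groups alone, Etfb, which encodes the β subunit of the electron transfer flavoprotein that feeds electrons from fatty acid oxidation into the chain, rose from a mean of 163 to 217 FPKM upon fasting (0.41 ± 0.093, adjusted p = 0.0476, limma). In that fit 10.3% of the 145 rows were called higher. With rows down to 20 FPKM, Idh3g, a subunit gene of the NAD-dependent isocitrate dehydrogenase of the tricarboxylic acid cycle, rose from 25.1 to 31.6 FPKM in WT livers (0.32 ± 0.049, adjusted p = 0.0111, limma), among 3.72% of the 215 rows called higher. In p21KO livers Idh3g was not called (0.12 ± 0.054, adjusted p = 0.181, limma), and the difference of its fasting effects was -0.20 (adjusted p = 0.894). Assembly factors, regulators of respiratory gene transcription and markers of other liver cells had 0 rows in these fits. In bulk liver, fewer cells of a type and less RNA per cell cannot be told apart, and no marker of another cell type was high enough to be compared beside these results.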

How the data were processed

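Liver RNA of 9 mice was sequenced as single reads. The authors aligned them to GRCm38/mm10 with TopHat and Bowtie, estimated abundance with Cufflinks, and deposited FPKM values, 1 column per mouse. Versions named in the submitters' processing notes are Cufflinks 1.3.0 and 2.2.1, TopHat2 2.0.4, SAMtools 0.1.16 and Bowtie 0.12.7. The labels name a TruSeq stranded mRNA kit, and the paper a low-input cDNA kit. No scaling between libraries is given in the sources used here. FPKM holds no read counts, so depth is unknown, no counting interval is given, and the number of mice limits the precision.

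Columns were matched to mice by name. The order of the rows was inferred from the values. Rows were kept for a comparison at 50 FPKM or more in all 9 libraries, since a lower value may belong to a neighbouring gene. This minimum does not ensure that each value kept is the gene's own. Of the 80 rows, 51 varied within 2-fold over the libraries, while Serpina3n varied 63.6-fold and Serpina1e 61.8-fold. Shares of the 80 rows may therefore include values of other genes, which was not tested. log2(FPKM + 1) was fitted with limma 3.58.1 (R 4.3.3): 4 group means, a trend in the variance, no covariate, Benjamini-Hochberg adjustment over all rows kept, calls at 0.05. The p-values measure the spread of the values on these rows, 1 per mouse. That spread can include values of other genes as well as differences between mice. The variance trend was fitted over all rows kept, Serpina3n and Serpina1e among them. Fold changes are on the log2(FPKM + 1) scale. Alternatives were minimum levels of 20 and 100 FPKM or none, a pseudocount of 0.1, median ratio scaling, quantile normalization, no trend, robust moderation, leaving out each library in turn, the 2 groups alone, and the replicate number as a block. The setting named as no minimum still kept only rows at 1 FPKM or more in more than 1 library. The fit was tested on simulated data.

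The name rule and the lists were chosen with earlier results of these data known. By a fixed rule the text names the 5 genes with the highest FPKM in p21KO fasted replicate 2, and Sdha to Sdhd. The rule also takes a list of tissue-specific isoforms (Cox4i2, Cox6a2, Cox7a1 and Cox8b) with their partners. Genes at the minimum in all 9 libraries and any gene called complete it. Other genes were named after their values were seen. The values of 1 gene are not reported here, although it stays in the counts and medians. Promoters and coordinates are from RefSeq GRCm38.p6, with motifs searched on both strands. Python 3.11.15, NumPy 2.4.6, pandas 2.3.3 and matplotlib 3.10.9 were used.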

Additional observations from a re-analysis of the deposited data

How the results depend on the processing

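Under most alternatives no respiratory chain gene tested was called in any comparison. In WT livers upon fasting Sdhd was called with rows of at least 100 FPKM (adjusted p = 0.0297, limma), as the 1 respiratory chain gene tested there. It was also called with median ratio scaling (0.43, adjusted p = 0.0190, limma). Atp5e was called with quantile normalization (-0.29, adjusted p = 0.0491, limma) and with the 2 groups alone (adjusted p = 0.0379, limma). Ndufs8 was called with rows of at least 20 FPKM. Of all rows, 26.3%, 23.8%, 16.2%, 26.2% and 10.2% were called in these settings, in this order. In p21KO livers Ndufs8 was called with rows of at least 20 FPKM, among 20.5% of all rows. With no minimum Uqcrh was called, 1 of 83 respiratory chain genes tested, against 0.686% of all rows. The 11 rows called in WT fasting became 22 with at least 20 FPKM, 72 with no minimum, 19 with median ratio scaling, 21 with the 2 groups alone, 28 with those groups alone at 50 FPKM, and 3 with a replicate block. The 13 rows called in p21KO fasting became 44, 98 and 7 with at least 20, no and at least 100 FPKM, and 2 with the 2 groups alone, 7 with those groups alone at 50 FPKM, and 2 with a replicate block. The 0 rows called between fasted genotypes became 1 with at least 20 FPKM and 69 with no minimum, those between fed genotypes 73 with no minimum, and those for the difference of fasting effects 1 and 81. These counts stand over unlike numbers of rows: 80 as reported, 215, 38 and 14293 with at least 20, at least 100 and no minimum. With no minimum 0.504% of rows were called in WT fasting, against 13.8% as reported, and 0.686% in p21KO fasting, against 16.2%. The shares there were 0.483% between fasted genotypes, 0.511% between fed genotypes and 0.567% for the difference of fasting effects. The cause of the changes between settings was not tested.

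Of the 6 genes, the number above 0 over the alternatives that tested them was 1 to 3 in WT fasting (2 as reported), 1 to 4 in p21KO fasting (3), 0 to 4 between fasted genotypes (2), 1 to 5 between fed genotypes (4) and 1 to 4 for the difference of fasting effects (3). Upon fasting, signs turned for Ndufs3 with median ratio scaling (0.050 in WT and 0.015 in p21KO fasting), for Cox5b with the replicate block (-0.019 in WT fasting) and for Ndufb10 with quantile normalization (-0.016 in p21KO fasting). With 1 library left out, called rows ranged from 4 to 16 in WT fasting, 4 to 22 in p21KO fasting, 0 to 2 between fasted and 0 to 3 between fed genotypes, and 0 to 3 for the difference of fasting effects. Log2 fold changes then crossed 0 in WT fasting for Cox5b (-0.058 to 0.066), Ndufb10 (-1.01 to 0.071) and Ndufs3 (-0.085 to 0.061), in p21KO fasting for Cox5b (-0.091 to 0.10) and Ndufb10 (-0.089 to 0.27), and, among the genes at the ends of the range between genotypes, for Uqcr11 (-0.38 to 0.092) and Cox5b (-0.0015 to 0.19) in fasted and Uqcr11 (-0.051 to 0.26) in fed livers. The labels give no pairing of mice by replicate number, so the block was an alternative setting only. The correlation of deviations over 12 same-numbered pairs ran from -0.27 to 0.17 over 80 rows. This cannot show whether mice were paired. In groups of 2 mice the deviations mirror each other, so pairs repeat, and rows may hold values of other genes. With 2 or 3 mice per group and 6 genes, small differences were not detectable.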
